A study of Mus musculus with 6 samples.

Results

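Keratin genes and 1 cornified envelope gene, 9 genes in all, were followed by RNA sequencing in cells of mouse pancreatic ductal adenocarcinoma given G-1 or vehicle. The members were taken by name, without a threshold on their values, from a table of 24421 genes. They are the type II keratins Krt8, Krt7 and Krt5, the type I keratins Krt18, Krt19, Krt20, Krt23 and Krt17, and Sprr1a, the only member from the cornified envelope. The libraries came from 3 cell lines named 6499c4, 6419c5 and 2838c3. Cells of each line received the small molecule G-1 at 250 nM, which activates the membrane oestrogen receptor GPER, or its solvent DMSO (vehicle), and RNA was taken after 16 hours. There was 1 library per line and treatment, so 3 libraries received G-1 and 3 received vehicle. The lines came from a laboratory collection of clonal lines grown from mouse tumours, and the series asks how GPER activation changes gene expression in them.

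Keratins are the intermediate filament proteins of epithelial cells. A type I and a type II chain must pair to form a filament, so the 2 classes are made together. Keratins 8 and 18 are the basic pair of simple epithelia, keratins 7 and 19 are added in ducts such as those of the pancreas, and keratin 20 is best known from gut epithelium. Keratins 5, 14 and 17 belong to basal and stressed cells of stratified epithelia. In such epithelia, transglutaminases cross-link proteins such as SPRR1A, involucrin and loricrin under the cell membrane into the cornified envelope.

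Levels are given in FPKM as deposited, a unit that divides the reads of a gene by its length in kilobases and by a scale for the library, and whole reads were recovered from the steps of these values. Reads in genes numbered 5455990 to 8890821 per library. Differences between groups are on the scale of log2(FPKM + 1) and were tested in limma over the 10748 genes whose mean level reached 1 FPKM, with p-values adjusted over all of them (Benjamini-Hochberg, threshold 0.05). Of the 9 members 8 reached that level, and Krt17, with a mean of 0.621 FPKM, did not. Each line had a single library per treatment, so p-values for G-1 rest on the spread between the 3 lines, and those for lines on the spread left between the 2 libraries of a line. Since no label says that cultures were independent repeats, p-values measure only the spread between these libraries, which may be technical. Read ratios carry exact 95% intervals that cover counting error only. The label of the cells was checked on marker genes: 8 of 8 ductal markers had a mean of at least 1 FPKM and summed to 3536 to 5965 FPKM with G-1 and 3534 to 6102 FPKM with vehicle. Of these markers 4 are the members Krt7, Krt8, Krt18 and Krt19, which make up most of the sum, so the check rests largely on the members. Of the others, Cdh1 (E-cadherin) reached 352 FPKM and Muc1 157 FPKM, but Epcam, an epithelial adhesion gene, only 5.81 and Sox9 only 2.73 FPKM. Fibroblast markers summed to at most 1.05 FPKM with G-1 and 1.11 with vehicle, with Col1a2, Dcn and Lum at 0, leukocyte markers to at most 3.35 and 2.77, with Adgre1 at 0, and endothelial markers to at most 1.01 and 1.58. Acinar markers summed to at most 1.11 and 1.86 FPKM, with Cpa1, Cela2a and Amy2a5 at 0, and the islet genes Ins1, Ins2 and Gcg were at 0 throughout. In bulk RNA, fewer cells expressing a gene and less RNA per cell cannot be told apart.

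In the GRCm38 annotation, Krt5 (101707070 to 101712898, minus strand), Krt7 (101411043 to 101430313, plus), Krt8 (101996698 to 102004482, minus) and Krt18 (102028180 to 102032027, plus) lie on chromosome 15, where Krt18 is the only type I member beside the type II members and stands next to its partner Krt8. Krt20 (99428403 to 99438150), Krt23 (99477974 to 99493137), Krt19 (100140810 to 100148665) and Krt17 (100256217 to 100261029) lie on the minus strand of chromosome 11, and Sprr1a (92483952 to 92485895, minus) on chromosome 3. Exons of Krt5, Krt7 and Krt8 overlap exons of non-coding genes on the other strand (Gm44323, Gm671 and Gm36026). The sources used here do not give the authors' build or say whether reads were counted by strand, so reads of these pairs may not be separable. The rules for reads shared within the keratin family, such as by Krt8 and its processed pseudogene Krt8-ps, are not given either.

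RefSeq promoter sequences (GRCm38.p6) were found for 7 of the 9 members, not for Krt17 and Krt19, and the 250 bases before each start were searched on both strands for 5 motifs. The promoters below are shown because Sprr1a and Krt7 had the largest G-1 differences among members with the same sign in all lines and Krt20 the widest spread between lines. Capitals mark the AP-1 site TGANTCA, the TATA box TATAAA and the GC box GGGCGG or its reverse complement CCGCCC, and each sequence runs 5′ to 3′ on the gene's strand.
Sprr1a: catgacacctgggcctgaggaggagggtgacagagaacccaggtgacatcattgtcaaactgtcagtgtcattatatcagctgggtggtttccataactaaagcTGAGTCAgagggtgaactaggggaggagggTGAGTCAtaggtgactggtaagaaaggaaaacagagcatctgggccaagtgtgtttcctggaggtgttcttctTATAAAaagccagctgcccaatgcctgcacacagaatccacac
Krt20: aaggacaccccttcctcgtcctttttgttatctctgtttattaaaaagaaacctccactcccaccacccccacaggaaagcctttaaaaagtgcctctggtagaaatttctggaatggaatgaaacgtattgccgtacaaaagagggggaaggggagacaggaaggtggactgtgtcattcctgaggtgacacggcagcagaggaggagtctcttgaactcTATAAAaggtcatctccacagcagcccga
Krt7: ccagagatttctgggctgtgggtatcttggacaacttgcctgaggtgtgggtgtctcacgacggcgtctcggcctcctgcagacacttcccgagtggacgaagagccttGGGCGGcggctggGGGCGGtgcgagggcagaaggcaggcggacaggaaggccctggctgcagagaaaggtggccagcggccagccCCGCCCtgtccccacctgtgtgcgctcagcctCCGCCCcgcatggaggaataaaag
The Sprr1a window (chr3:92485882-92486131, minus strand) held 2 AP-1 sites, starting 146 and 116 bases before the start, and a TATA box 43 bases before it. The Krt20 window (chr11:99438154-99438403, minus strand) held a TATA box 29 bases before the start, and the Krt7 window (chr15:101412153-101412402, plus strand), which lies within the annotated span of the gene because longer transcripts begin upstream of it, held 4 GC boxes and no TATA box. Among 27025 promoters of the same length, 6.87% held at least 1 AP-1 site, 13.0% a TATA box and 32.9% a GC box. The cAMP response element TGACGTCA, found in 1.62% of promoters, was in none of the 7. The core of the xenobiotic response element, GCGTG, found in 28.2%, was in those of Krt18 and Krt23. These matches describe the letters in the windows, and binding was not measured.

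The simple-epithelial keratins made up nearly all keratin mRNA in each line, but their balance differed. The table lists 52 keratin genes, of which 32 were above 0 in at least 1 library and 12 had a mean of at least 1 FPKM. Summed over all of them, keratin FPKM were 5359 with G-1 and 5380 with vehicle in 6499c4, 5971 and 6067 in 6419c5, and 3333 and 3309 in 2838c3. The sum was lowest in 2838c3 and differed little between treatments. Krt18 was the largest share in every library, at 29.8% of keratin FPKM with G-1 and 29.0% with vehicle in 6499c4, 44.4 and 42.6% in 6419c5, and 45.7 and 46.0% in 2838c3. Krt19, by contrast, took 26.0% with either treatment in 6499c4, 15.8 and 17.3% in 6419c5, and 12.3 and 11.9% in 2838c3. On the authors' gene lengths, line 6499c4 thus held nearly as much Krt19 as Krt18 mRNA per kilobase. Its Krt19 to Krt18 ratio was 0.872 (G-1) and 0.897 (vehicle), against 0.259 to 0.405 in the libraries of the other lines. Type II over type I FPKM was 0.741 and 0.766 in 6499c4, 0.532 and 0.550 in 6419c5, and 0.558 and 0.559 in 2838c3, so type I mRNA was in excess in every library. These comparisons between genes rest on the gene lengths the authors used. The exonic length in the annotation was 0.704 to 0.952 times the length implied by the FPKM steps for 8 members, and 3.13 times for Krt7, whose annotation includes long transcripts. It was 0.952 times for Krt19 and 0.724 times for Krt18, so annotated lengths would give lower Krt19 to Krt18 ratios in every library.

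**Figure D1:**
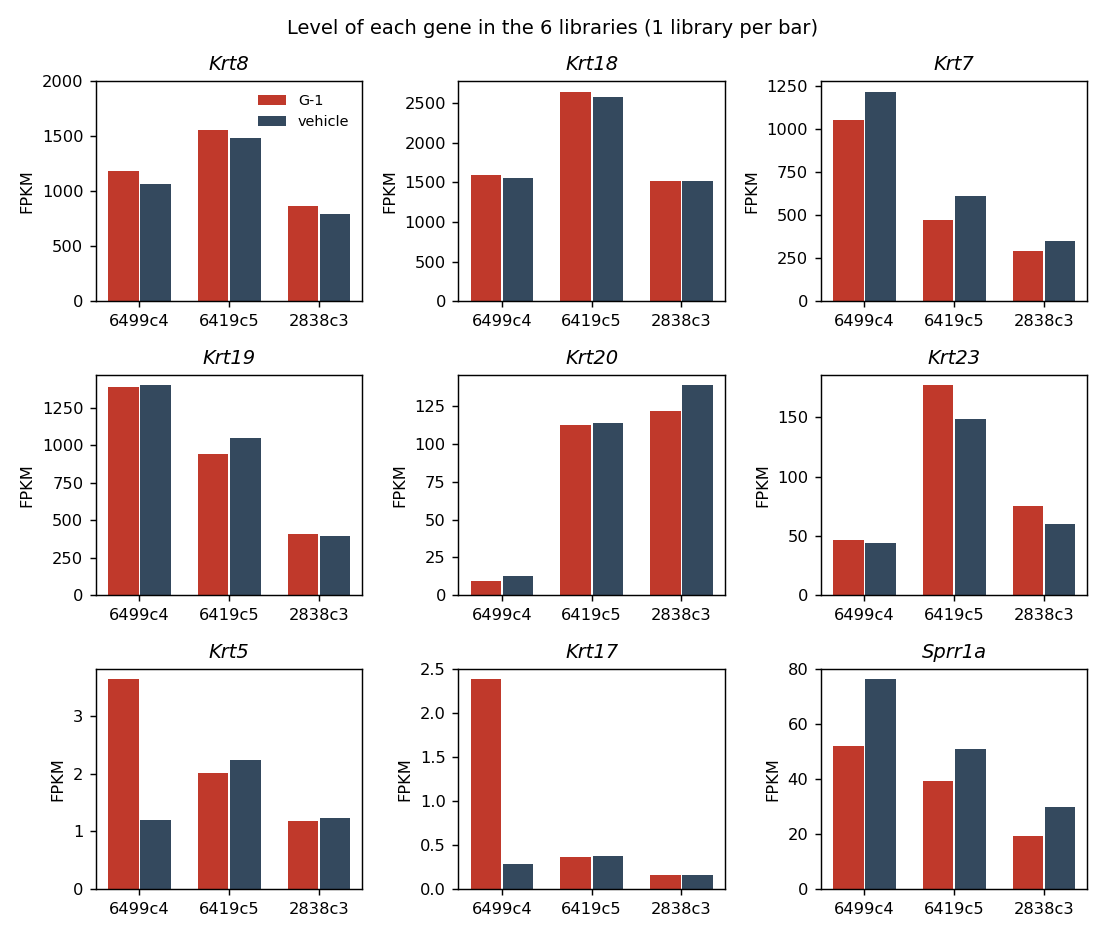
FPKM of each of the 9 genes, 1 panel per gene with its own linear axis from 0, in G-1 (red) and vehicle (dark) libraries of 6499c4, 6419c5 and 2838c3; each bar is 1 library, without error bars. Krt8 and Krt18 peak in 6419c5, Krt7, Krt19 and Sprr1a in 6499c4, and Krt20 is at 9.05 and 12.6 FPKM in 6499c4 against 113 to 139 elsewhere.

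**Figure D2:**
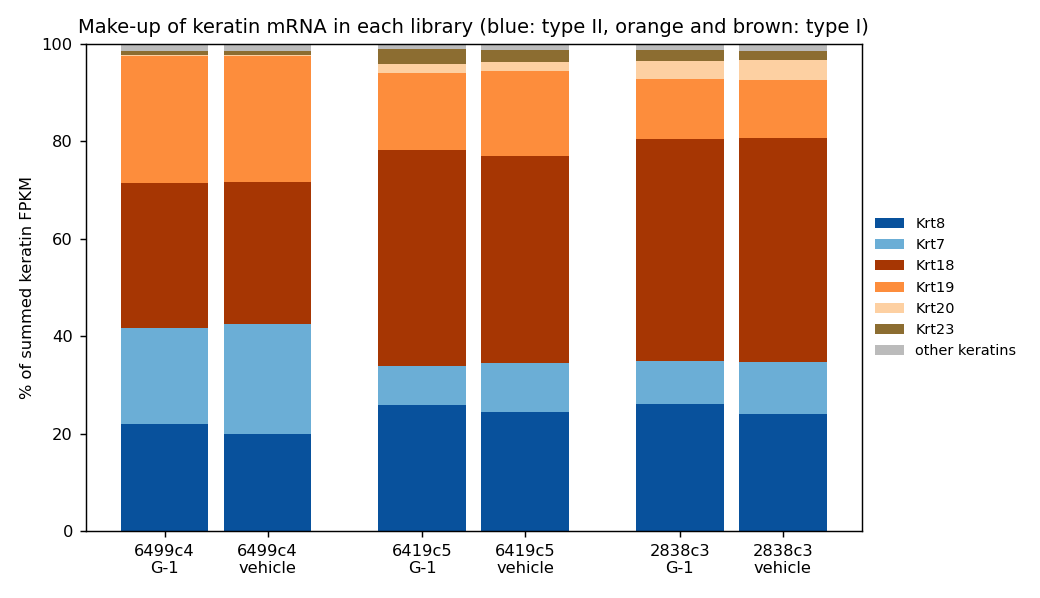
Share of each keratin in the summed keratin FPKM of each library, in percent, with type II keratins in blue, type I in orange and brown, and keratins outside the 6 named in grey. In 6499c4 Krt7 and Krt19 take larger shares, and Krt18 a smaller one, than in both other lines.

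The lines differed in most members. Between 6499c4 and 2838c3, 6 of 8 members passed the limma test, where 55.6% of all tested genes did, 4 of them higher in 6499c4 (26.6% of all genes) and 2 lower (28.9%). Between 6419c5 and 2838c3 it was also 6 of 8 (51.5% of all genes), all of them higher in 6419c5, where 26.2% of all genes were higher and 25.3% lower. Between 6499c4 and 6419c5 it was 7 of 8 (45.0% of all genes), 3 higher in 6499c4 (21.3%) and 4 lower (23.7%). With so few genes and backgrounds of this size, the counts show nothing particular to keratins. Krt7, Krt8, Krt19, Krt23 and Sprr1a passed in each of the 3 pairs of lines, 5 of 8 members against 16.4% of all genes, and in 7 of 8 members the libraries of no 2 lines overlapped, against 47.2% of all genes. The median difference over the 8 members was 0.49 for 6499c4 against 2838c3, 0.82 for 6419c5 against 2838c3 and −0.20 for 6499c4 against 6419c5, where the medians of all genes were −0.01, 0.00 and 0.01. Of all calls, 47.9% were higher in 6499c4 against 2838c3 and 47.4% against 6419c5. Scaling by read totals moved both shares to 60.4%, with shifts of the all-gene median to 0.115 and 0.101.

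**Figure D3:**
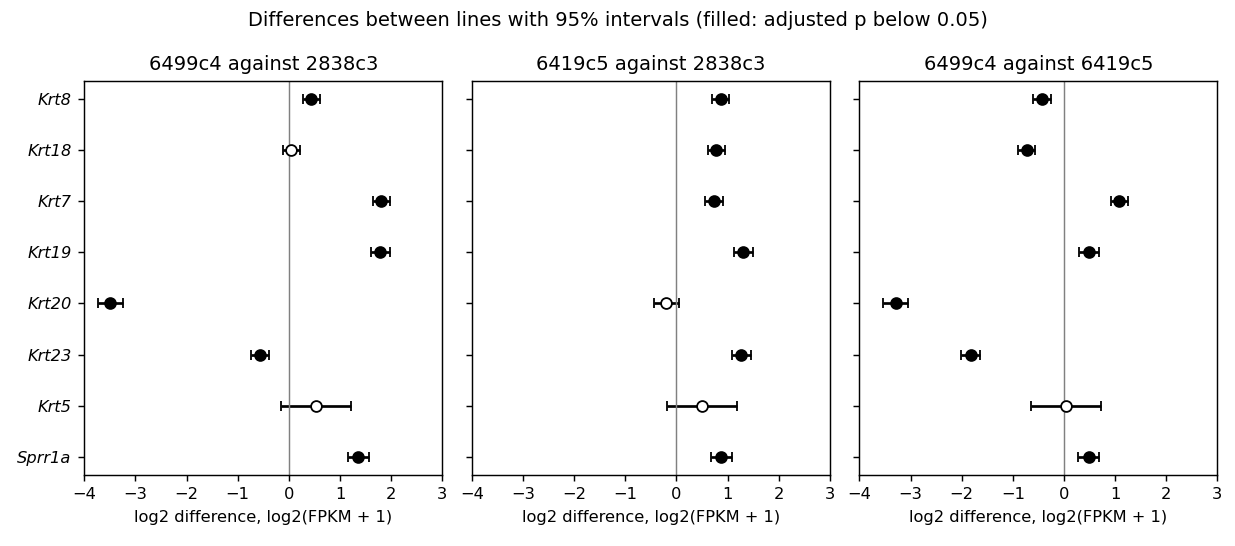
Difference between lines in log2(FPKM + 1) for the 8 members tested, in 1 panel per pair of lines, with 95% intervals from limma (2 libraries per line); filled points have an adjusted p below 0.05. Krt20 lies at −3.49 and −3.29 in both comparisons of 6499c4, and Krt7 and Krt19 lie above 0 in all 3 panels.

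Krt8 and Krt18 encode the obligate pair of simple epithelia, and both were highest in 6419c5. Krt8 had 1187 FPKM with G-1 and 1068 with vehicle in 6499c4, 1552 and 1481 in 6419c5, and 869 and 795 in 2838c3. Its 6 values fall into 3 separate pairs, ordered 6419c5, 6499c4, 2838c3. Krt8 was higher in 6419c5 than in 2838c3 by 0.87 (SE 0.07, adjusted p = 0.000104) and higher in 6499c4 than in 2838c3 by 0.44 (SE 0.07, adjusted p = 0.00171). It was lower in 6499c4 than in 6419c5, with a difference of −0.43 (SE 0.07, adjusted p = 0.00265). Of these calls, 2 depended on the processing: quantile normalization left 0.14 (adjusted p = 0.157) for 6499c4 against 2838c3, and without the vehicle library of 6419c5 the adjusted p for 6499c4 against 6419c5 was 0.0587.

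Krt18 had 1595 FPKM with G-1 and 1560 with vehicle in 6499c4, 2648 and 2583 in 6419c5, and 1525 and 1521 in 2838c3. Only the 6419c5 libraries stood clearly above the rest, while those of 6499c4 and 2838c3 were adjacent in the order. The difference of 6419c5 from 2838c3 was 0.78 (SE 0.07, adjusted p = 0.000177) and that of 6499c4 from 6419c5 was −0.73 (SE 0.07, adjusted p = 0.000265). For 6499c4 against 2838c3 it was 0.05 (95% interval −0.12 to 0.22, adjusted p = 0.585), which turned to −0.28 (adjusted p = 0.0159) when GC content and gene length were corrected for. In 6419c5 Krt18 ranked 4 among all genes by FPKM in both libraries, and in the other lines it ranked between 13 and 18.

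Krt7 and Krt19, the keratins of ductal cells, both ran from high in 6499c4 through 6419c5 to low in 2838c3. Krt7 had 1052 FPKM with G-1 and 1220 with vehicle in 6499c4, 470 and 611 in 6419c5, and 293 and 353 in 2838c3. Each line kept its place whichever treatment is compared, and no 2 lines overlapped. The line mean of 6499c4 was 3.51 times that of 2838c3, a difference of 1.81 (SE 0.07, adjusted p = 2.72e-06), and the difference from 6419c5 was 1.08 (SE 0.07, adjusted p = 4.40e-05). For 6419c5 against 2838c3 it was 0.73 (SE 0.07, adjusted p = 0.000215). Krt19 had 1391 FPKM with G-1 and 1400 with vehicle in 6499c4, 942 and 1047 in 6419c5, and 410 and 394 in 2838c3, and its lines did not overlap either. Its line mean in 6499c4 was 3.47 times that in 2838c3, a difference of 1.79 (SE 0.08, adjusted p = 3.90e-06), and that of 6419c5 from 2838c3 was 1.30 (SE 0.08, adjusted p = 2.71e-05). The step between the upper lines was smaller, 0.49 for 6499c4 against 6419c5 (SE 0.08, adjusted p = 0.00221), and its adjusted p was 0.0539 without the G-1 library of 6419c5.

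Krt20, a type I keratin of gut epithelium, showed the widest spread between lines among the members tested. It had 9.05 FPKM with G-1 and 12.6 with vehicle in 6499c4, 113 and 114 in 6419c5, and 122 and 139 in 2838c3. Both 6499c4 libraries were far below the other 4, while 6419c5 and 2838c3 were neighbours. The line mean of 6499c4 was 10.8 FPKM and that of 2838c3 was 130 FPKM. The differences of 6499c4 were −3.49 from 2838c3 (SE 0.10, adjusted p = 7.21e-07) and −3.29 from 6419c5 (SE 0.10, adjusted p = 1.32e-06). For 6419c5 against 2838c3 the difference of −0.20 (95% interval −0.44 to 0.05, adjusted p = 0.154) missed the threshold, but passed it in limma-voom on the recovered reads (adjusted p = 0.0318) and after correction for GC content and length (−0.45, adjusted p = 0.0159).

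Krt23, a less studied type I keratin, was highest in 6419c5. It had 46.5 FPKM with G-1 and 43.8 with vehicle in 6499c4, 177 and 149 in 6419c5, and 74.8 and 60.1 in 2838c3. The 3 lines were again separate, with 6499c4 lowest, as for Krt20. The difference was −0.56 (SE 0.08, adjusted p = 0.000819) for 6499c4 against 2838c3, −1.82 (SE 0.08, adjusted p = 5.89e-06) for 6499c4 against 6419c5, and 1.26 (SE 0.08, adjusted p = 3.19e-05) for 6419c5 against 2838c3.

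The basal keratins among the members, Krt5 and Krt17, had few reads. Krt5 had 3.64 FPKM with G-1 and 1.20 with vehicle in 6499c4, 2.01 and 2.24 in 6419c5, and 1.18 and 1.23 in 2838c3, from 22 to 64 reads per library. One library, 6499c4 with G-1, was above the rest, and the vehicle library of that line was within the range of 2838c3, so the lines overlap. No pair of lines differed past the threshold, with adjusted p of 0.157 for 6499c4 against 2838c3, 0.188 for 6419c5 against 2838c3 and 0.938 for 6499c4 against 6419c5. These values turned on the libraries of 6499c4: without its G-1 library the difference from 2838c3 was −0.04, and without its vehicle library it was 1.11 (adjusted p = 0.00395). For 6419c5 against 2838c3 the difference of 0.50 passed when either 6499c4 library was left out (adjusted p = 0.0289 and 0.0280). Krt17 had 29 reads with G-1 and 4 with vehicle in 6499c4, 3 and 4 in 6419c5, and 2 and 2 in 2838c3. Apart from that 1 library of 6499c4, its level was 0.155 to 0.371 FPKM.

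Sprr1a, the small proline-rich envelope precursor, followed the same order of lines as Krt7 and Krt19. It had 51.9 FPKM with G-1 and 76.2 with vehicle in 6499c4, 39.3 and 50.7 in 6419c5, and 19.1 and 29.9 in 2838c3. The lines were separate, although the G-1 library of 6499c4 and the vehicle library of 6419c5 were neighbours. The difference was 1.36 (SE 0.09, adjusted p = 2.36e-05) for 6499c4 against 2838c3, 0.49 (SE 0.09, adjusted p = 0.00377) for 6499c4 against 6419c5, and 0.87 (SE 0.09, adjusted p = 0.000222) for 6419c5 against 2838c3.

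Beside these line differences, those between G-1 and vehicle were small, and none passed over all genes in the FPKM test. None of the 8 members passed in limma, where 0.0279% of all genes (3 of 10748) did. Krt7, Krt20, Krt23 and Sprr1a had an unadjusted p below 0.05, as did 1081 genes in all. In limma-voom on the recovered reads, with 37.7 prior degrees of freedom against 5.35 in the FPKM test, 2 of 8 members passed, Krt7 and Sprr1a, both lower with G-1, where 1.61% of all genes were called and 0.517% were called lower. The sign was the same in all 3 lines for 6 of 8 members: higher with G-1 for Krt8, Krt18 and Krt23 (15.4% of all genes were higher in every line) and lower for Krt7, Krt20 and Sprr1a (17.5%). For Krt18 the higher sign in 2838c3 rested on 18215 reads with G-1 and 18223 with vehicle. After correction for GC content and gene length, Krt18 was −0.13 in 6499c4 and −0.12 in 2838c3 and Krt23 was −0.04 in 6499c4. Of the 3 higher members only Krt8 kept one sign, at 0.01 in 6499c4, 0.08 in 6419c5 and 0.01 in 2838c3. Krt7, Krt20 and Sprr1a were lower in every line. For Krt7 the correction used the annotated length, 3.13 times the length implied by the FPKM steps. The median difference over the 8 members was −0.01, equal to that of all genes.

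**Figure D4:**
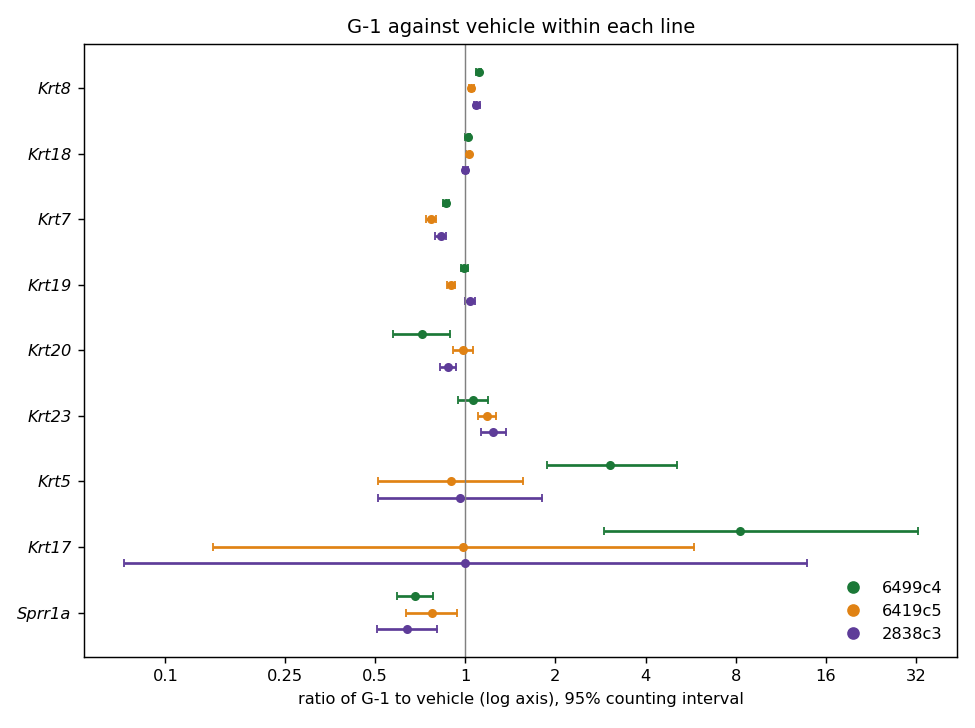
Ratio of G-1 to vehicle for each gene in 6499c4 (green), 6419c5 (orange) and 2838c3 (purple), on a log axis, from recovered reads and the authors' library scale; bars are exact 95% counting intervals. Sprr1a and Krt7 lie below 1 in all 3 lines, and the intervals of Krt5 and Krt17 leave out 1 in 6499c4 and include it in 6419c5 and 2838c3.

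Sprr1a had the largest difference among the members whose sign was the same in all lines. Its reads were 329 with G-1 and 551 with vehicle in 6499c4, 169 and 286 in 6419c5, and 129 and 202 in 2838c3. On the authors' scale, the ratio of G-1 to vehicle was 0.682 (95% interval 0.593 to 0.783) in 6499c4, 0.775 (0.637 to 0.941) in 6419c5 and 0.640 (0.509 to 0.803) in 2838c3. The G-1 library was thus the lower one in each of the 3 lines, beyond counting error, while the groups of 3 libraries overlapped because the lines differ. The mean difference was −0.51 (SE 0.07, 95% interval −0.68 to −0.34, n = 3 lines), with a limma adjusted p of 0.175 and a limma-voom adjusted p of 0.00846.

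Krt7 moved the same way by less. Its ratio of G-1 to vehicle was 0.863 (95% interval 0.844 to 0.883) in 6499c4, 0.769 (0.739 to 0.799) in 6419c5 and 0.830 (0.796 to 0.866) in 2838c3. All 3 intervals lie below 1 and rest on 3970 to 17712 reads per library. The mean difference was −0.29 (SE 0.06, 95% interval −0.43 to −0.15), with a limma adjusted p of 0.288 and a limma-voom adjusted p of 0.00107. As a share of keratin FPKM, Krt7 was 19.6% with G-1 and 22.7% with vehicle in 6499c4, 7.87 and 10.1% in 6419c5, and 8.80 and 10.7% in 2838c3. The other abundant type II keratin, Krt8, took the larger share with G-1 in each line, 22.1% against 19.9% with vehicle in 6499c4, 26.0 against 24.4% in 6419c5 and 26.1 against 24.0% in 2838c3.

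The remaining members did not pass in either test. The mean difference of Krt8 was 0.12 (95% interval −0.02 to 0.25, adjusted p = 0.548), with ratios of 1.11, 1.05 and 1.09 in 6499c4, 6419c5 and 2838c3. It was 0.03 after correction for GC content and gene length. Krt18 had a mean difference of 0.02 (−0.12 to 0.17, adjusted p = 0.915), with ratios of 1.02, 1.03 and 1.00 in the same order of lines. For Krt23 the ratios were 1.06, 1.18 and 1.24, a mean difference of 0.21 (0.06 to 0.36, adjusted p = 0.373), and the interval in 6499c4 (0.947 to 1.19) included 1. Krt20 had ratios of 0.717, 0.986 and 0.876, a mean difference of −0.22 (−0.42 to −0.02, adjusted p = 0.470), which was −0.10 without 6499c4. Krt19 did not keep its sign, with ratios of 0.994, 0.899 and 1.04 and a mean difference of −0.03 (−0.19 to 0.12, adjusted p = 0.885). With the correction its differences were −0.15, −0.14 and −0.06 in the same order of lines, all lower with G-1. The intervals of Krt8, Krt18 and Krt19 exclude differences of the size measured for Sprr1a.

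Krt5 and Krt17 differed from vehicle beyond counting error in 6499c4, and not in 6419c5 or 2838c3, though the difference between lines was not tested. The ratio of G-1 to vehicle for Krt5 was 3.05 (95% interval 1.88 to 5.09) in 6499c4, 0.900 (0.512 to 1.56) in 6419c5 and 0.959 (0.510 to 1.80) in 2838c3. For Krt17 it was 8.28 (2.91 to 32.4), 0.984 (0.144 to 5.82) and 1.00 (0.0727 to 13.8). Both genes thus had their highest level in the G-1 library of 6499c4. Krt14, another basal keratin and one with more reads, had a ratio of 1.17 (0.906 to 1.51) in 6499c4, from 127 reads with G-1 and 124 with vehicle. Its ratios were 0.968 (0.747 to 1.25) in 6419c5 and 1.04 (0.750 to 1.45) in 2838c3, so every interval included 1. The mean difference of Krt5, 0.31 (95% interval −0.25 to 0.88, adjusted p = 0.679), became −0.07 without 6499c4. Keratins below the level filter had most reads in the same library: the 20 such genes above 0 summed to 131 reads with G-1 and 77 with vehicle in 6499c4, against 23 to 33 reads in the other 4 libraries, and without Krt17 to 102 and 73 reads, against 20 to 29. Lor, which encodes loricrin and was chosen after its values were seen, had 68 reads with G-1 and 13 with vehicle in 6499c4, and 0 or 1 elsewhere. Other envelope genes went both ways in 6499c4. Sbsn had 0 reads with G-1 and 19 with vehicle, and ratios were 0.759 (95% interval 0.574 to 0.999) for Ivl and 0.682 for Sprr1a. They were 1.63 (1.20 to 2.22) for Evpl, 2.28 (1.06 to 5.22) for Sprr2h and 1.58 (1.04 to 2.40) for Sprr2a3. Some leukocyte markers were also higher with G-1 in 6499c4. Cd68, a macrophage gene, had 32 reads with G-1 and 9 with vehicle there, and Ptprc, the pan-leukocyte gene, had 7 and 0. Csf1r and Cd3e had 0 reads in both libraries of that line. Cd68 was lower with G-1 in the other lines, with 8 and 16 reads in 6419c5 and 22 and 28 in 2838c3. Ptprc had 0 and 1 reads in 6419c5 and 3 and 0 in 2838c3. The whole leukocyte list summed to 1.69 to 3.35 FPKM with G-1 and 0.788 to 2.77 with vehicle, with Adgre1 at 0, and its part in the result was not tested. Over all genes, G-1 differences varied with GC content in 6499c4 and 2838c3. In 6499c4 the tenth of genes richest in GC (at least 57.75%) had a median G-1 difference of 0.157 and the tenth poorest a median of −0.115. The medians were −0.003 and 0.033 in 6419c5, and 0.111 and −0.105 in 2838c3. Krt17 has 58.87% GC and Krt5 56.94%. With a correction for GC content and length, the Krt5 difference in 6499c4 was 0.95 instead of 1.08, and the part of GC content in the Krt17 and Lor values was not tested.

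Outside the members, 5 keratins reached the level filter, and all 5 were higher in 6499c4 than in 2838c3, where 26.6% of all genes were. Their median difference was 0.58, where all genes had −0.01. Krt13 and Krt79 had line means of 0.0892 and 0.753 FPKM in 2838c3 and reached the filter through the other lines. The filter favoured this direction for them, so the count and median are no result about keratins. Krt13, a type I keratin of internal stratified epithelia, had 15.6 FPKM with G-1 and 14.1 with vehicle in 6499c4, 2.24 and 3.30 in 6419c5, and 0.178 and 0 in 2838c3. Its lines were widely separate, with differences of 3.87 for 6499c4 against 2838c3 and 2.08 (SE 0.19, adjusted p = 0.000175) for 6499c4 against 6419c5. No test of Krt13 against 2838c3 is given, because of the filter. Krt14, the type I partner of Krt5, had 9.54 and 8.16 FPKM in 6499c4, 11.8 and 12.2 in 6419c5, and 5.51 and 5.28 in 2838c3, and unlike Krt5 it kept the lines apart. It was higher in 6499c4 than in 2838c3 by 0.62 (SE 0.12, adjusted p = 0.00334) and in 6419c5 than in 2838c3 by 1.03 (SE 0.12, adjusted p = 0.000389). Krt80, a type II keratin, had 35.7 and 43.1 FPKM in 6499c4, 47.6 and 57.5 in 6419c5, and 29.0 and 35.8 in 2838c3. Line means of Krt10, a type I keratin of differentiating epidermis, and of Krt79, a type II keratin, were at most 2.39 FPKM. With G-1, 0 of the 5 passed in limma and 0 of 7 tested in limma-voom, and Krt80 alone had an unadjusted limma p below 0.05. The Krt80 ratio of G-1 to vehicle was 0.829 in 6499c4, 0.828 in 6419c5 and 0.809 in 2838c3, a mean difference of −0.28 (SE 0.06, adjusted p = 0.294), close to that of Krt7. Krt27, named after its values were seen, had 28 reads with G-1 and 37 with vehicle in 6499c4 and 0 reads in the other 4 libraries.

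Of 54 genes of the cornified envelope and its cross-linking, Sprr1a included, 53 were in the table, 26 were above 0 and 8 reached the filter. In 6419c5 against 2838c3, 7 of the 8 were higher (26.2% of all genes) and 1 was lower (25.3%), with a median difference of 0.97 where all genes had 0.00. For 6499c4 against 2838c3, 4 were higher (26.6% of all genes) and 2 lower (28.9%), with a median of 0.66 where all genes had −0.01. Against 6419c5, 1 was higher (21.3%) and 3 lower (23.7%), with a median of −0.44 where all genes had 0.01. Ivl, Sprr2a3 and Sprr2h had line means of 0.183, 0.0688 and 0.157 FPKM in 2838c3 and reached the filter through the other lines. Sbsn, at 0.454 FPKM in 6499c4, likewise reached it through the other lines. The filter favoured their direction against those lines, so these counts and medians are no result about the list. Ivl, which encodes involucrin, had 5.77 FPKM with G-1 and 7.61 with vehicle in 6499c4, 7.92 and 12.1 in 6419c5, and 0.244 and 0.121 in 2838c3. It was near 0 in 2838c3, and the differences from that line were 2.69 in 6499c4 and 3.19 in 6419c5. Since Ivl reached the filter through those lines, no test of these differences is given. Sprr2a3, of the same gene family as Sprr1a, had 8.49 and 5.38 FPKM in 6499c4, 9.92 and 3.78 in 6419c5, and 0.138 and 0 in 2838c3. Its near-identical copies Sprr2a1 and Sprr2a2 make its counts uncertain. Sprr2h had line means of 2.64 FPKM in 6499c4, 3.57 in 6419c5 and 0.157 in 2838c3, while Sbsn, which encodes suprabasin, had 0.454, 3.55 and 1.38. With G-1, 0 of the 8 passed in limma, 2 had an unadjusted p below 0.05, and in limma-voom 1 of 11 passed, Sprr1a. Sprr2a3 had a difference opposite to that of Sprr1a, with ratios of 1.58 (95% interval 1.04 to 2.40) in 6499c4 and 2.62 (1.56 to 4.54) in 6419c5, 1 read against 0 in 2838c3, and a mean difference of 0.65 (SE 0.19, adjusted p = 0.371). Evpl, which encodes the linker envoplakin, had a mean difference of 0.17 (SE 0.14, adjusted p = 0.711).

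**Figure D5:**
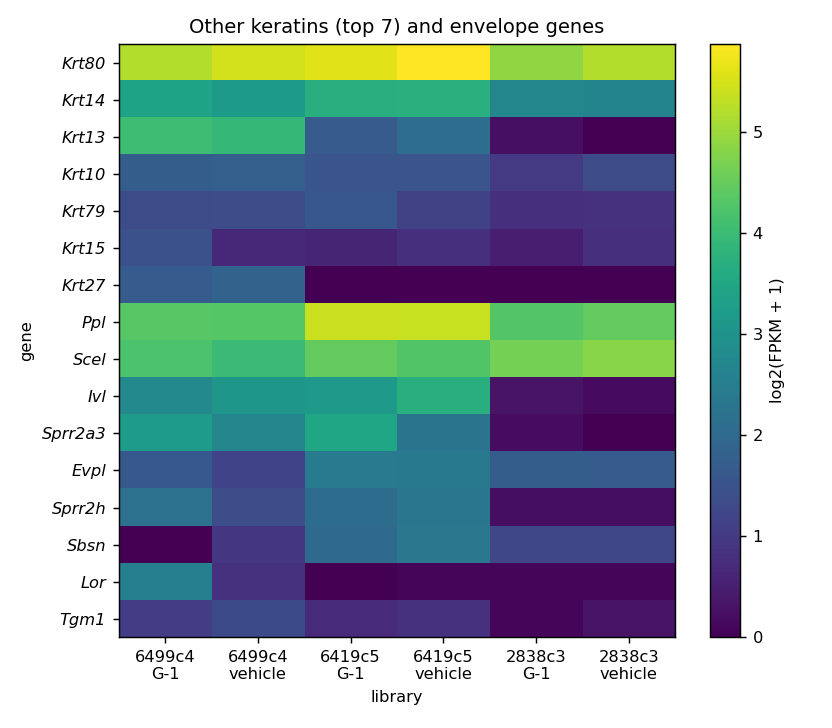
Levels in log2(FPKM + 1) of 7 other keratins and 9 envelope genes (rows) in the 6 libraries (columns), from dark (0) to yellow (high). Krt13 is brightest in 6499c4, Ivl, Sprr2a3 and Sprr2h are dark in 2838c3, and Krt27 and Lor appear in 6499c4.

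Genes that anchor keratin filaments at desmosomes and hemidesmosomes did not follow one order. Of 17, 13 reached the filter. For 6499c4 against 6419c5, 1 was higher (21.3% of all genes) and 10 were lower (23.7%), with a median difference of −0.66 where all genes had 0.01. For 6499c4 against 2838c3, 4 were higher (26.6%) and 6 lower (28.9%), with a median of −0.19 where all genes had −0.01. For 6419c5 against 2838c3, 6 were higher (26.2%) and 3 lower (25.3%), with a median of 0.18 where all genes had 0.00. Dsp encodes desmoplakin, the plaque protein that binds keratin filaments. It had 19.3 FPKM with G-1 and 15.7 with vehicle in 6499c4, 35.6 and 31.1 in 6419c5, and 92.6 and 99.3 in 2838c3, so that it was highest in the line with the lowest keratin sum. Dsc2, a desmosomal cadherin gene, was lowest where Dsp was highest, with 6.13 and 3.88 FPKM in 6499c4, 8.82 and 7.89 in 6419c5, and 0.398 and 0.185 in 2838c3. The difference of 6499c4 from 2838c3 was −2.39 for Dsp (SE 0.10, adjusted p = 3.65e-06) and 2.20 for Dsc2. Dsc2 was below 1 FPKM in 2838c3 and reached the filter through the other lines, so no test of its difference is given. The filter favoured its calls against 2838c3, which are among the counts above. Jup, which encodes plakoglobin, had line means of 63.8 FPKM in 6499c4, 103 in 6419c5 and 44.5 in 2838c3, and Pkp1, a plakophilin gene, had 6.42, 4.73 and 1.62. With G-1, 0 of the 13 passed in limma, none had an unadjusted p below 0.05, and 0 of 14 passed in limma-voom. The median difference was 0.07. Members with the same sign in all lines included Dsc2 (0.31, adjusted p = 0.497), Pkp1 (0.27, adjusted p = 0.548), Pkp2 (0.17, adjusted p = 0.568) and Plec (0.13, adjusted p = 0.616), which encodes the cytolinker plectin.

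Of 13 intermediate filament genes other than keratins, 5 reached the filter, and 4 of these 5 were lower in 6499c4 than in 6419c5, where 23.7% of all genes were lower (median −0.96, all genes 0.01). Against 2838c3, 4 were lower in 6499c4 (28.9% of all genes) and 1, the lamin gene Lmnb2, was higher by 0.37 (SE 0.11, adjusted p = 0.0238), with a median of −0.60 where all genes had −0.01. All 5 were higher in 6419c5 than in 2838c3 (26.2% of all genes; median 0.40, all genes 0.00). Vim, which encodes the mesenchymal filament protein vimentin, had 1087 FPKM with G-1 and 1110 with vehicle in 6499c4, 2862 and 2878 in 6419c5, and 2038 and 1891 in 2838c3. Per kilobase, vimentin mRNA was above Krt18 mRNA in 6419c5 and 2838c3 and below it in 6499c4. The difference was −0.84 (SE 0.08, adjusted p = 0.000124) for 6499c4 against 2838c3 and −1.38 (SE 0.08, adjusted p = 1.99e-05) for 6499c4 against 6419c5. Nes, the gene of nestin, had line means of 4.58 FPKM in 6499c4, 21.0 in 6419c5 and 13.6 in 2838c3, and the lamin genes Lmna and Lmnb1 were also lowest in 6499c4, at 228 and 56.4 FPKM. With G-1, 0 of 5 passed in limma, 3 had an unadjusted p below 0.05, and 1 passed in limma-voom. That gene was Nes, with ratios of 0.890, 0.822 and 0.738 in 6499c4, 6419c5 and 2838c3 (mean difference −0.27, limma adjusted p = 0.418). Lmna had a mean difference of 0.17 (adjusted p = 0.474) and Lmnb1 of −0.17 (adjusted p = 0.407).

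Among 18 transcription factor genes of epithelia, 13 reached the filter. For 6499c4 against 2838c3, 6 were higher (26.6% of all genes) and 3 lower (28.9%), with a median of 0.32 where all genes had −0.01. For 6419c5 against 2838c3, 4 were higher (26.2%) and 3 lower (25.3%), close to the background, with a median of 0.08 where all genes had 0.00. For 6499c4 against 6419c5, 5 were higher (21.3%) and 5 lower (23.7%), with a median of −0.25 where all genes had 0.01. Ehf, an epithelial ETS factor gene, had 18.9 FPKM with G-1 and 17.1 with vehicle in 6499c4, 0.461 and 0.479 in 6419c5, and 0.134 and 0.160 in 2838c3. It was above 1 FPKM in 6499c4 and below it in the other 4 libraries, so it reached the filter through 6499c4 and no test of its line difference is given. Fosl1, a gene of the AP-1 family, had line means of 34.7 FPKM in 6499c4, 67.4 in 6419c5 and 87.8 in 2838c3, the reverse of the order of Sprr1a. Grhl3 and Grhl1, of the grainyhead family of epithelial regulators, were highest in 6419c5, with line means of 0.990 and 1.08 FPKM in 6499c4, 2.59 and 3.27 in 6419c5, and 0.0210 and 0.680 in 2838c3. Sox9, with line means of 0.801 FPKM in 6499c4, 1.81 in 6419c5 and 2.53 in 2838c3, was called lower in 6499c4 against each other line. Calls of Ehf, Grhl3, Grhl1 and Sox9 count above, although the filter favoured their direction against lines where their means lay below 1 FPKM. These counts and medians are thus no result about the list. With G-1, 0 of 13 passed in limma, 4 had an unadjusted p below 0.05, and 2 passed in limma-voom, both higher. They were Jun, another AP-1 gene, with ratios of 2.07 (95% interval 1.73 to 2.49) in 6499c4, 1.18 (0.982 to 1.42) in 6419c5 and 1.61 (1.33 to 1.96) in 2838c3, and Klf4, a differentiation factor gene, with 1.29, 1.28 and 1.27. The mean differences were 0.59 for Jun (SE 0.14, limma adjusted p = 0.300) and 0.34 for Klf4 (SE 0.06, limma adjusted p = 0.219). Sox9, a ductal regulator gene, had −0.35 (adjusted p = 0.495) and Foxa1 −0.22 (adjusted p = 0.631).

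For each member the genes with the most similar pattern were ranked by Pearson r of log2(FPKM + 1) over the 6 libraries, which share 3 lines, so that r mostly measures likeness of line levels. Krt19 was closest to Snhg18, Tm4sf4 and Slc25a16 (r = 0.9989, 0.9987 and 0.9979). Tm4sf4 had 824 FPKM with G-1 and 866 with vehicle in 6499c4, 527 and 568 in 6419c5, and 200 and 201 in 2838c3. These were nearly the same steps as those of Krt19. Krt20 was closest to H6pd, Cd44 and Arhgef5 (r = 0.9982, 0.9979 and 0.9978). Cd44, the hyaluronan receptor gene, had 32.1 and 33.6 FPKM in 6499c4, 121 and 121 in 6419c5, and 120 and 131 in 2838c3, so that it was low where Krt20 was low. Krt18 was closest to Mxra7, Eva1a and Cpm (r at least 0.9985), all at 0.336 FPKM or less outside 6419c5, and Krt8 to Sqrdl, Fuca2 and S100a4 (at least 0.9979). S100a4, a calcium-binding protein gene, had 112 and 97.0 FPKM in 6499c4, 205 and 201 in 6419c5, and 61.8 and 50.8 in 2838c3. Krt7 was closest to Pdia6, Fam73a and D17H6S56E-5 (at least 0.9962), Krt23 to C1ra, Akr1c14 and Wrb (at least 0.9927), and Sprr1a to Stxbp4, Nlk and Prps2 (at least 0.9939). None of the 3 genes closest to any tested member was another member. For Krt5 they were Gm29766, Snrpa and Brms1 (at least 0.9761), each highest in the G-1 library of 6499c4. Snrpa, a splicing factor gene, had 54.6 FPKM in that library and 38.1 to 45.8 FPKM in the other 5.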

How the data were processed

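The authors deposited 1 table of FPKM values for 24421 genes in 6 libraries, per the file headers. Per the submitters' processing notes, STAR and DESeq2 were used, in roles that are not stated. The sources used here do not give the build, annotation or strandedness. Within a gene the FPKM move in equal steps per read, so reads were recovered for every gene to within 0.01 reads. Where all read counts of a gene are multiples of the same number, recovery would be too low. A count of 0 allows up to 3 reads, 0.337 to 0.55 RPM over the libraries.

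Groups follow the labels. Values were analysed as log2(FPKM + 1) for genes whose mean reached 1 FPKM, using limma 3.58.1 under R 4.3.3 with terms for line and treatment, a variance trend, two-sided tests and Benjamini-Hochberg adjustment (2 residual and 5.35 prior degrees of freedom). Lines were contrasted in the same fit. Lines pair the libraries by design, and the deviations of both libraries of a line from their group means correlated at 0.882 (6499c4), 0.871 (6419c5) and 0.906 (2838c3). Limma-voom used genes with at least 60 recovered reads over all libraries. Fits and read recovery were tested on simulated data. Intervals of ratios are exact binomial at 95%. Promoters are the 250 bases before RefSeq starts. Named genes are the 9 members, every other keratin at or above the filter, in each list up to 4 with the largest same-sign G-1 difference and up to 4 with the widest range of line means, and the 3 genes most like each member. Others are said to be chosen after their values were seen. Members and lists were chosen with earlier results of these data known. Alternatives were another pseudocount, filter, scaling, variance model or block, leaving out libraries, and, added after the data were seen, a correction for GC content and length.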

Additional observations from a re-analysis of the deposited data

Results flagged for a closer look

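Krt19 had read ratios on opposite sides of 1 in different lines. Its ratio of G-1 to vehicle was 0.899 (95% interval 0.872 to 0.927) in 6419c5 and 1.04 (1.00 to 1.08) in 2838c3. In 2838c3, 4807 reads with G-1 stood against 4627 with vehicle. The lower limit there is 1 at this precision, so only the counting interval of 6419c5 clearly leaves out 1. After correction for GC content and gene length the log2 differences were −0.14 in 6419c5 and −0.06 in 2838c3, so that the opposite direction was gone. The difference between lines was not tested, since each line has 1 library per treatment.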

How the results depend on the processing

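Genes called between G-1 and vehicle numbered 3, and 1 with a pseudocount of 0.1, 6 with a filter of 5 FPKM, 181 in limma-voom and 0 with no filter, no variance trend or no replicate block (line as block), and 0 to 11 when a line was left out. Members called numbered 2 in limma-voom and 0 in the other settings for G-1. The block changed no member's call. The Krt18 difference with G-1 was −0.08 with quantile normalization and −0.07 with the block and correction for GC content and length. That of Krt19 was 0.03 without 6419c5 and that of Krt5 −0.07 without 6499c4 and 0.52 without 6419c5. For 6499c4 against 2838c3, Krt18 was −0.07 with quantile normalization and −0.28 with the correction, and Krt5 was −0.04 without the G-1 library of 6499c4. For 6499c4 against 6419c5, Krt5 was −0.01 with a pseudocount of 0.1, −0.28 without the G-1 library of 6419c5, −0.54 without that of 6499c4 and −0.03 with the correction. Leaving out 1 library at a time gave 3430 to 5677 genes called for 6419c5 against 2838c3 (5533 with all, 3430 and 3590 without a 6419c5 library) and 2612 to 4708 for 6499c4 against 6419c5 (4836 with all, 2612 and 3003 without a 6419c5 library). The cause of these changes was not tested, except that fewer libraries entered the fits that leave some out. Of 428 member differences recomputed, 407 kept their direction and side of the threshold, 11 changed sign, 8 gained a call (1 of them with a change of sign) and 3 lost one. At this depth Krt5 and Krt17 rest on 64 reads or fewer per library. With 1 library per line and treatment, a response that differs between lines could not be tested.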
